A study of Sus scrofa with 23 samples.

Results

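Chaperones and heat shock genes were followed through pig preimplantation development in fertilized and cloned embryos. The members were all genes of the expression table whose symbol begins with HSP (followed by A to H or a digit), DNAJA, DNAJB, DNAJC, CCT (followed by a digit), PDIA or PFDN, together with BAG1 to BAG6, the heat shock factors HSF1 and HSF2, and XBP1, ATF4, ATF6, DDIT3 and CALR. This rule uses names alone and no measured value. It found 75 genes among the 8603 of the table, of which 7371 carry a symbol. In the list of pig gene names 97 symbols match it, and the 22 that are not among the rows used here, ATF4, DDIT3 and HSF1 included, were not analysed here. HSPBAP1 and HSPBP1 match by their letters and are counted apart from the families. All 75 members reached 1 FPKM (fragments for each kilobase of transcript, a level scaled to gene length and library depth) in at least 1 library, and 49 did so in all 23.

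The 23 libraries belong to 3 groups with 1 library per condition. The IV-D group holds Duroc material made in the animal, with in vivo matured oocytes from 2-year-old sows and embryos flushed after artificial insemination by 1 boar, the father of all these embryos. The NT-D group holds embryos made by somatic cell nuclear transfer from ear fibroblasts of that same Duroc boar, and the NT-LW group embryos made in this way from ear fibroblasts of a Laiwu boar, a Chinese breed; each group is 1 donor cell line, and both donors were 1 year old. Stages are metaphase II oocytes (OC), 1-cell (1C), 2-cell (2C), 4-cell (4C) and 8-cell (8C) embryos, morulae (MO), and 2 parts of the blastocyst, of which TE is trophectoderm alone and IT is inner cell mass with trophectoderm still attached. The oocytes labelled NT-D are in vitro matured oocytes from slaughterhouse ovaries of hybrid sows, the nuclear receptors, and they have not received a nucleus. Cloned embryos grew in PZM3 medium at 38.5°C under low oxygen while IV-D embryos grew in the sow, and the IV-D oocytes came from Duroc sows. All cloned embryos were male, whereas IV-D pools mixed male and female embryos. IV-D embryos were flushed out of uteri removed after the death of the sow, whereas cloned embryos came from culture. Cloning, culture, collection, oocyte maturation, the breed of the oocyte and embryo sex thus cannot be told apart in any comparison of cloned with IV-D embryos. For NT-LW the breed of the nucleus differs from IV-D as well. In the oocytes maturation, collection and breed cannot be told apart. NT-D and NT-LW are each set against the same IV-D library, and their values are therefore given side by side and not as independent evidence. Each library is a pool of several oocytes or embryos.

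Chaperones bind proteins that are not yet folded or have lost their fold. In the cytosol HSP70 proteins take up unfolded chains from J-domain partners (DNAJ), nucleotide exchange factors of the HSP110 and BAG families release them, and HSP90 and the ring-shaped CCT complex, fed by prefoldin, complete the folding of particular clients. Mitochondria have their own set (HSPD1, HSPE1, HSPA9), and so does the endoplasmic reticulum (ER), where HSPA5 (BiP), HSP90B1 (GRP94), the lectin CALR and the protein disulfide isomerases (PDIA) handle secreted and membrane proteins. Heat shock factors switch on the cytosolic set through heat shock elements, and XBP1, ATF6 and ATF4 switch on the ER set in the unfolded protein response. HSP70 transcripts are also known as some of the earliest products of the embryonic genome in mammals.

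Promoters of members are shown first. Windows of 250 bases before to 50 bases after the RefSeq start on Sscrofa11.1 could be drawn for 68 members, since 72 have 1 placed RefSeq gene and 4 of these models, HSP70.2 included, begin at the coding sequence. The ER stress element was searched on both strands as CCAAT, 9 bases of any kind and CCACG, and it occurred in 4 of 68 member promoters (5.88%), those of HSPA5, HSP90B1, CALR and XBP1, and in 15 of all 17658 promoters (0.0849%). The heat shock element was searched as GAA, 2 bases of any kind and TTC, which reads alike on both strands, and it occurred in 10 member promoters (14.7%) and in 6.14% of all. The 10 were DNAJA1, DNAJA4, DNAJB1, DNAJB14, DNAJB6, DNAJC9, HSP90AB1, HSPA1L, HSPA8 and HSPD1. Of the 7 heat-inducible genes listed below, only DNAJA4 and DNAJB1 are among them. The other order of 2 units, TTC, 2 bases and GAA, was not searched by itself, so the other genes may hold it. Extended to 3 units by 2 more bases and GAA after it, or TTC and 2 bases before it, it was found in 6 member promoters (8.82%; DNAJA1, DNAJB14, DNAJB6, HSP90AB1, HSPA8 and HSPD1) and in 0.368% of all; each such match also holds a match of 2 units. No match of 3 units was found in a gene of the heat-inducible list, of which HSP70.2 and HSP90AA1 had no window. A match is a run of letters and not a bound site, and it is given as a description. Capitals mark the ER stress elements in the first 4 sequences, the elements of 3 units in HSPA8 and those of 2 units in DNAJB1, and each sequence runs 5′ to 3′ along its gene.
HSPA5 (chr1:265934910-265935209, minus strand): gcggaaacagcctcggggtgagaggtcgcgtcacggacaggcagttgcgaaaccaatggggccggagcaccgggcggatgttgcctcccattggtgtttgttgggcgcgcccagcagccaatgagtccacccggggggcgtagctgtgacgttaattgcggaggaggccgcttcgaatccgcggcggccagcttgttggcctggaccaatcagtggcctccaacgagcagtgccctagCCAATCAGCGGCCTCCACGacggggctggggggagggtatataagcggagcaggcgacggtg
HSP90B1 (chr5:80530967-80531266, minus strand): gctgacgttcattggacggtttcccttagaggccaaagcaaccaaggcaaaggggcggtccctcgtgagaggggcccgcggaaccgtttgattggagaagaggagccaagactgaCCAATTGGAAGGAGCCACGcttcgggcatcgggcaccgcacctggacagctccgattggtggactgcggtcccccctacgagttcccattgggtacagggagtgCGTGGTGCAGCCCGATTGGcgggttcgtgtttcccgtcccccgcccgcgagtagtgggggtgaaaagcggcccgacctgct
CALR (chr2:66102025-66102324, minus strand): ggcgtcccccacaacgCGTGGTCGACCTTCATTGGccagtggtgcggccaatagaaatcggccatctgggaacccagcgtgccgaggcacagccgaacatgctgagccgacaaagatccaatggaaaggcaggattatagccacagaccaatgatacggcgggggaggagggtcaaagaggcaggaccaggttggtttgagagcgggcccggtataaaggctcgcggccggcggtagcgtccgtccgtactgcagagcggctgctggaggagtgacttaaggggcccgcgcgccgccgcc
XBP1 (chr14:46016477-46016776, minus strand): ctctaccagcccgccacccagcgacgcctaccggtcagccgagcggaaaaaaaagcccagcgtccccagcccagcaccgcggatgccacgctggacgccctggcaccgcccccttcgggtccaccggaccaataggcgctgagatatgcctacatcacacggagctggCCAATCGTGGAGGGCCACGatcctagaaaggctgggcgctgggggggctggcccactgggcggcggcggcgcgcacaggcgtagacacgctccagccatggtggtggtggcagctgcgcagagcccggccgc
HSPA8 (chr9:49986711-49987010, minus strand): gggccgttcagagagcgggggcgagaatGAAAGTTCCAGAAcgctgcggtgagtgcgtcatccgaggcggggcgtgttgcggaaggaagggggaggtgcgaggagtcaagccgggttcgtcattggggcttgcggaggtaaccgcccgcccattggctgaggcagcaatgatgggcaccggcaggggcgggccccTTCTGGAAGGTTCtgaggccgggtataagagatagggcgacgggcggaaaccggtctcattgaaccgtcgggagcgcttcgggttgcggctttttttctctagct
DNAJB1 (chr2:64761422-64761721, plus strand): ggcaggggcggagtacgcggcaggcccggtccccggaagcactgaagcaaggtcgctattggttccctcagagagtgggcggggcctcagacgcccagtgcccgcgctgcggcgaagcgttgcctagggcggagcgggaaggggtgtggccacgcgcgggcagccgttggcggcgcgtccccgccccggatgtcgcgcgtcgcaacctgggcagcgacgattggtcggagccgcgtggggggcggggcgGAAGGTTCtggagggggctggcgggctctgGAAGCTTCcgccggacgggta
Of the 15 promoters with the ER stress element, 9 belong to genes of the table, and 5 of these are no members: CANX, CASTOR1, CRELD2, LMBR1 and SLC33A1.

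Whole fragments could be recovered from the FPKM values, and library depth ranged from 14952784 to 22991067 fragments. The members together took 1.001% to 2.499% of the summed FPKM of a library. A gene without fragments may have had up to 3, worth 0.130 to 0.201 FPKM at 1 kb. The 95% intervals given with fold values come from fragment numbers and cover counting error only, since no condition has a replicate. No p-value between conditions can be given. Rescaling to a common sum and median-ratio scaling changed the sign of no member difference that passed the rule given below. This could not have come out otherwise, because the scaling factors of the libraries compared differ by less than the smallest change that passes. A gene was counted as higher or lower between 2 libraries when log2(FPKM + 1) changed by over 1 and either of them reached 1 FPKM, a fold rule and not a test. The share of all 8603 genes of the table past the rule is printed as the background. The label of the table speaks of differential genes, so this background is not that of the whole transcriptome. The pseudocount of 1 understates the change of genes with low values. Among fixed markers of cell types, the 8 oocyte genes in the table summed to 498 to 3247 FPKM in the 11 libraries up to the 4-cell stage and to 0.710 to 243 FPKM in the 12 later ones. At 8C this sum was 21.5 FPKM in IV-D, 195 in NT-D and 243 in NT-LW, and in morulae 8.33, 190 and 30.9. The 6 trophectoderm genes summed to 1166 and 1288 FPKM in both IV-D blastocyst parts and to 1014 to 2665 FPKM in the 4 cloned ones. The 3 inner cell mass genes in the table, of 5 listed (NANOG, KLF17 and GDF3), summed to 32.3 FPKM in IV-D IT and 2.05 in IV-D TE, to 17.2 and 15.2 in NT-D IT and TE and to 12.9 and 12.4 in NT-LW. NANOG was at 9.80 FPKM in IV-D IT, 5.00 in NT-D IT and 3.76 in NT-LW IT, and at 0 in all 3 TE libraries. GDF3 stood at 8.26 and 1.22 FPKM in IV-D IT and TE, 9.68 and 14.0 in NT-D and 6.73 and 9.08 in NT-LW, so this list separated IT from TE in IV-D and did not by its sum in the clones. The 5 fibroblast genes summed to 0.0920 to 2.74 FPKM in IV-D and 0.136 to 9.58 FPKM in cloned blastocyst parts.

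**Figure D1:**
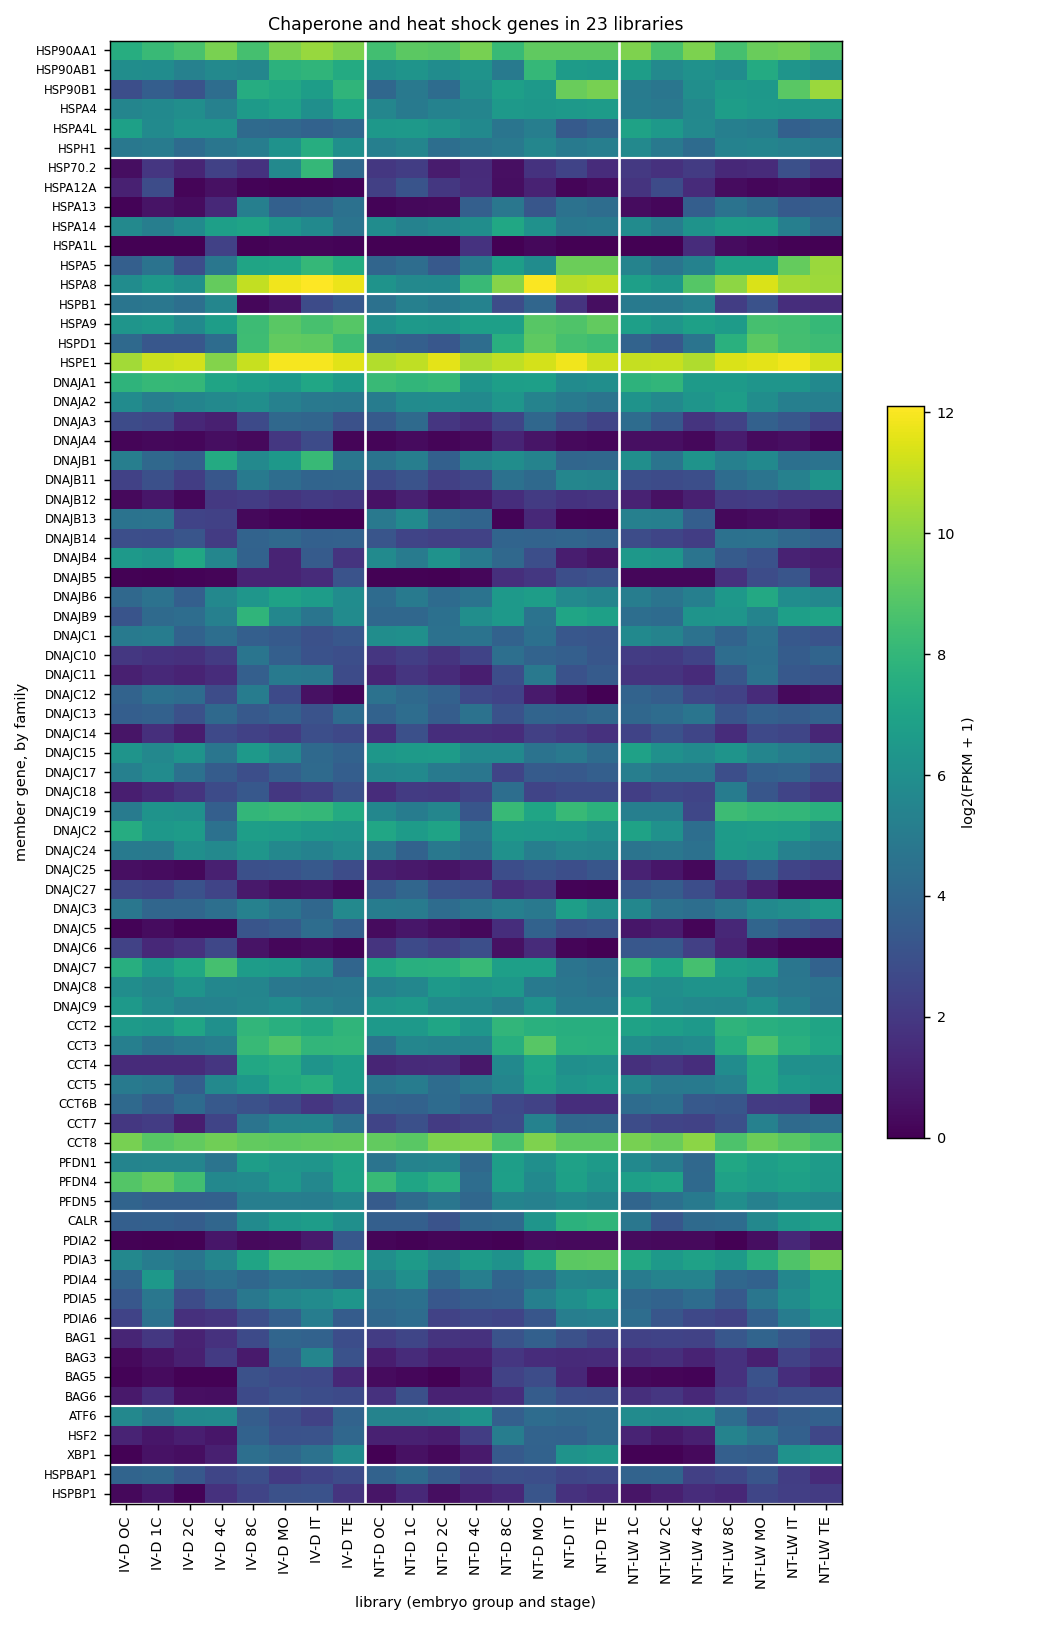
Level of each of the 75 members (rows, by family, separated by white lines) in the 23 libraries (columns, by group and stage) as log2(FPKM + 1), from dark (0) to yellow (highest). Many rows brighten from the 4C to the 8C column in all 3 groups, the HSPA5 and HSP90B1 rows are brightest in the cloned IT and TE columns, and the HSP70.2 and BAG3 rows are brightest in the IV-D IT column.

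The members had a median range of 3.35 on the log2(FPKM + 1) scale over the 23 libraries, against 3.42 for all genes of the table. As the table is labelled as one of differential genes, both ranges may depend on how its genes were chosen. This was not tested. Among the IV-D libraries the highest level lay in IT for 19 of 75 members (25.3%, all genes 12.4%), in MO for 11 (14.7%, all genes 10.5%) and in TE for 11 (14.7%, all genes 13.1%). It lay in 8C for 13 (17.3%, all genes 17.4%), in 1C for 8 (10.7%, all genes 16.4%), in 4C for 5 (6.67%, all genes 14.7%) and in OC and 2C for 4 each (5.33%, all genes 9.30% and 6.27%). Some counts below are for lists of members made after the values were seen, which are used as a description: 15 genes whose proteins work in or at the ER (HSPA5, HSP90B1, HSPA13, CALR, PDIA2 to PDIA6, DNAJB9, DNAJB11, DNAJC1, DNAJC3, DNAJC10 and DNAJC25) and 7 heat-inducible genes (HSP70.2, DNAJB1, BAG3, HSPH1, DNAJA4, HSP90AA1 and HSPB1). HSPE1, HSPA8, HSP90AA1, CCT8 and HSPD1 are among the most abundant members. A sum of FPKM in a pool of embryos cannot tell fewer cells of a type from less RNA per cell.

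Maternal transcripts came first. From oocyte to 1-cell embryo in IV-D, 7 members were higher (all genes 10.7%) and 5 lower (all genes 5.95%). Protein disulfide isomerases, which form and shuffle disulfide bonds in the ER, made up 3 of the 7. PDIA4 stood at 14.6 FPKM in oocytes, 85.8 in 1-cell embryos and 17.3 in 2-cell embryos, and PDIA6 at 4.43, 21.6 and 2.21 FPKM. The 1-cell library was thus the high one for both. From 1-cell to 2-cell embryos 1 member was higher (all genes 5.14%), DNAJC24, and 12 were lower (all genes 19.2%), HSPA5 and the isomerases PDIA4, PDIA5 and PDIA6 among them. Median-ratio scaling between libraries moved the median of all genes by 0.26 (log2). It turned this split into 11 higher (all genes 13.5%) and 7 lower (all genes 10.2%), so the direction of the step depends on scaling.

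HSPA8 and DNAJB1 were higher in IV-D 4-cell than in 2-cell embryos under every scaling, while the counts over their groups depended on it. As deposited, 5 of the 7 HSP70 members (HSP70.2, HSPA1L, HSPA5, HSPA8 and HSPA14) and 5 of the 7 heat-inducible genes (HSP70.2, DNAJB1, BAG3, HSP90AA1 and HSPB1) passed the rule as higher and none as lower. Median-ratio scaling left 3 of the 7 HSP70 members and, of the heat-inducible genes, DNAJB1 alone (1 of 7). From 2-cell to 4-cell embryos 19 members were higher (all genes 29.2%) and 9 lower (all genes 10.4%). Rescaling to a common sum gave 30 (all genes 38.3%) and 7 (all genes 8.87%), with the median of all genes moved by 0.27. Median-ratio scaling gave 10 (all genes 18.5%) and 18 (all genes 24.4%), with a shift of -0.45. DNAJB1, the J-domain partner of inducible HSP70, was 14.5-fold (95% interval 13.4 to 15.7) higher, and HSPA8, the constitutive HSP70 of the cytosol, 9.53-fold (95% interval 9.23 to 9.84) higher. CCT5 was 4.45-fold higher. PFDN4, a prefoldin subunit, was 6.94-fold lower, DNAJC19 of the mitochondrial import motor 5.91-fold lower and DNAJC2, a ribosome-bound J-domain protein, 4.66-fold lower. HSPA1L, an HSP70 of the testis, had no fragment in IV-D oocytes, 1-cell and 2-cell embryos and 169 fragments (4.13 FPKM) in 4-cell embryos, at least 81.7-fold higher against 3 fragments in the 2-cell library. It was also at its highest in the 4-cell libraries of the clones (2.45 and 1.88 FPKM) and at or below 0.308 FPKM in all others. Its RefSeq gene spans HSP70.2 on the other strand, and reads of near-identical HSP70 copies could have been split between them.

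The step from 4-cell to 8-cell embryos moved the largest number of members. In IV-D 35 of 75 were higher (46.7%, all genes 32.6%) and 12 lower (16.0%, all genes 26.2%), with a median difference of 0.76 against 0.17 for all genes. In NT-D 28 were higher (all genes 28.5%) and 16 lower (all genes 26.1%), with medians of 0.51 and 0.08. NT-LW embryos had 28 higher (all genes 25.6%) and 14 lower (all genes 23.4%), with medians of 0.50 and 0.03. Rescaling to a common sum gave 21 (all genes 23.8%) and 18 (all genes 30.5%) there, with a shift of -0.18. Median-ratio scaling gave 20 (all genes 21.9%) and 17 (all genes 27.3%), with a shift of -0.14. By family, the members higher in IV-D 8-cell embryos included all 3 mitochondrial chaperones, 4 of 7 CCT subunits with none lower, 2 of 3 prefoldin subunits with none lower, 4 of 6 genes of the isomerase and CALR family with none lower, and 13 of 33 J-domain proteins with 6 lower. Heat-inducible genes went the other way, with 0 of 7 higher and 4 lower, and the 15 ER genes had 11 higher and 0 lower. Median-ratio scaling gave 9 higher and 1 lower for the ER genes, 2 of 3 higher for the mitochondrial chaperones and 2 of 6 for the isomerase and CALR family, and the same counts for the heat-inducible genes. Of all genes 26.4% were then higher and 30.7% lower in IV-D.

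CCT4, a subunit of the CCT ring that folds actin and tubulin, went from 2.79 to 152 FPKM in IV-D, 54.4-fold (95% interval 47.6 to 62.4) higher. It went from 0.722 to 53.1 FPKM in NT-D and from 2.02 to 58.9 in NT-LW. No CCT4 library up to the 4-cell stage exceeded 2.80 FPKM and no later one lay below 53.1 FPKM, so early and late libraries did not overlap. CCT8, a subunit of the same ring, differed little, at 781, 502, 583, 703, 587, 539, 576 and 594 FPKM from OC to TE in IV-D. HSPD1 (HSP60), the mitochondrial chaperonin, stood at 16.6, 8.68, 8.77, 18.4, 321, 581, 545 and 321 FPKM in the same order, and was 17.4-fold (95% interval 16.4 to 18.6) higher at 8C than at 4C. Its co-chaperonin HSPE1 (HSP10) was abundant from the oocyte on, at 1373, 2213, 2463, 913, 2149, 3896, 3903 and 3049 FPKM. The genes lie side by side on opposite strands, HSPD1 at chr15:101360355-101373498 and HSPE1 at chr15:101374019-101376146, and their levels in IV-D 2-cell embryos were 8.77 and 2463 FPKM. HSPE1 and HSPA8 have processed copies in mammalian genomes, which could take up part of their reads.

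**Figure D2:**
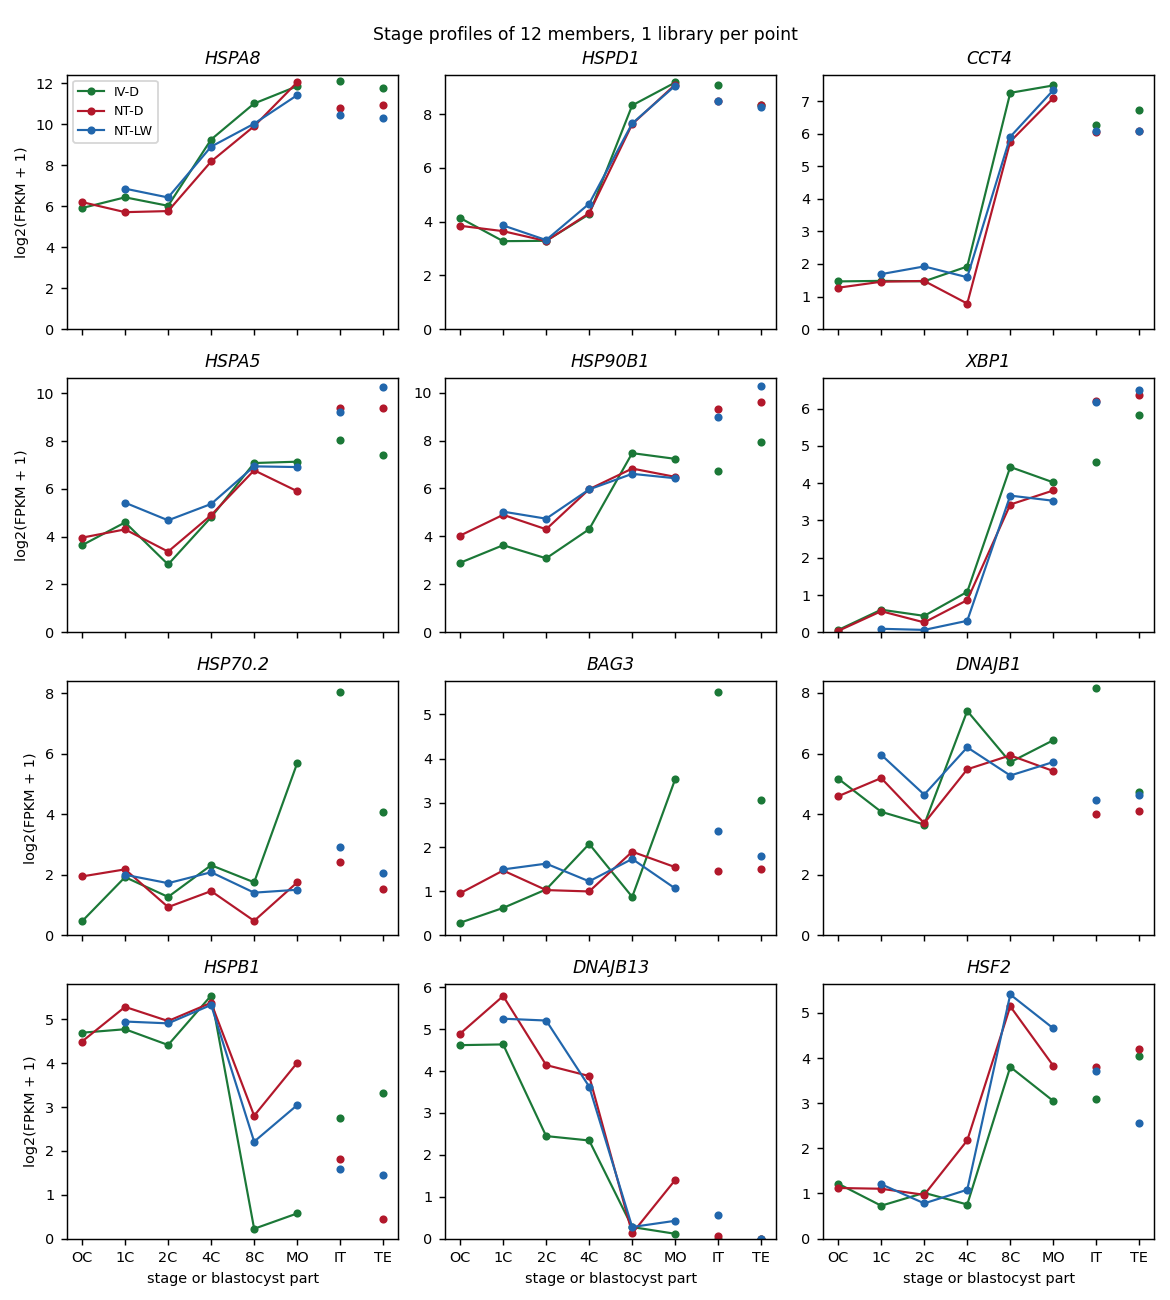
log2(FPKM + 1) of 12 members by stage (oocyte to morula joined by lines, blastocyst parts as separate points) in IV-D (green), NT-D (red) and NT-LW (blue), 1 library per point and the vertical scale set for each gene. HSPA8, HSPD1, CCT4 and XBP1 climb at 4C or 8C in all groups, HSPA5 and HSP90B1 points of both clone groups lie above IV-D at IT and TE, and HSP70.2, BAG3 and DNAJB1 peak in IV-D IT.

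HSPA8 was higher at 4C than at 2C and higher again at 8C in IV-D, at 58.9, 85.0, 63.6, 606, 2050.3, 3675, 4373 and 3433 FPKM from OC to TE. NT-D libraries held 72.3, 51.1, 53.0, 288, 952, 4196, 1752 and 1980.0 FPKM in the same order, and NT-LW libraries 114, 84.6, 476, 1036, 2717, 1407 and 1260.0 FPKM from 1C to TE. All 12 libraries from 8C on lay above all 11 earlier ones. Over all members, 19 (25.3%) had every late library above every early one, against 15.3% of all genes: HSPA8, HSPA5, HSP90B1, HSPA4, HSPD1, CCT3, CCT4, PFDN1, PFDN5, HSF2, XBP1 and 8 J-domain proteins, DNAJB5, DNAJB11, DNAJB14, DNAJC5, DNAJC10, DNAJC11, DNAJC19 and DNAJC25. The opposite held for 7 (9.33%), against 13.4% of all genes: ATF6, HSPB1, HSPA4L, CCT6B, DNAJB4, DNAJB13 and DNAJC27. The oocyte markers separate the same libraries, and the part that loss of oocyte RNA has in these counts was not tested.

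Regulators and their partners took different courses. XBP1, the transcription factor that is spliced in the unfolded protein response, was at or below 1.12 FPKM in the early libraries of all groups and at 20.6, 15.2, 22.7 and 55.7 FPKM in IV-D 8C, MO, IT and TE. FPKM values per gene do not separate its spliced and unspliced forms. ATF6, the membrane-bound factor of the same response, stood at 48.8, 29.6, 52.8, 54.4, 11.04, 6.40, 4.27 and 13.3 FPKM from OC to TE in IV-D, 4.93-fold (95% interval 4.62 to 5.26) lower at 8C than at 4C. HSF2, a heat shock factor with known roles in germ cells and embryos, was at 1.32, 0.656, 1.02, 0.687, 13.0, 7.27, 7.57 and 15.4 FPKM and lay above its early levels in every later library. HSPB1, a small heat shock protein that holds unfolded proteins in the cytosol, went from 45.7 FPKM in 4-cell to 0.167 FPKM (3 fragments) in 8-cell IV-D embryos, 274-fold (95% interval 93.3 to 1332) lower. DNAJB4 was lower past the rule at 3 successive steps, from 149 FPKM at 2C to 45.2 at 4C, 13.0 at 8C and 1.29 at MO. DNAJB13, known from sperm flagella and cilia, declined from 23.9 FPKM at 1C to 4.46 at 2C and 0.210 at 8C, and HSPA4L, an HSP110 protein, from 115 at OC to 53.9 at 1C and 17.3 at 8C.

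Of the 7 heat-inducible genes, 5 were higher in IV-D morulae than at the 8-cell stage and 5 were higher in the IT part than in morulae, with none lower at either step. From 8C to MO 10 members were higher (all genes 10.5%) and 6 lower (all genes 11.6%), and from MO to IT 7 were higher (all genes 6.39%) and 3 lower (all genes 6.3%). The latter split was 9 (all genes 9.24%) and 2 (all genes 2.98%) under median-ratio scaling, with a shift of 0.14. HSP70.2, the stress-inducible HSP70 of the pig, stood at 0.382, 2.80, 1.42, 3.996, 2.38, 50.7, 262 and 16.0 FPKM from OC to TE. It was 21.3-fold (95% interval 18.5 to 24.8) higher in MO than in 8C and 5.17-fold (95% interval 5.00 to 5.35) higher in IT than in MO. BAG3, a heat-inducible co-chaperone that links HSP70 to autophagy, stood at 0.220, 0.539, 1.06, 3.20, 0.830, 10.6, 44.3 and 7.33 FPKM, 12.8-fold and 4.17-fold higher at the same steps. DNAJB1 reached 288 FPKM in IT, after 168 at 4C, 51.4 at 8C and 85.8 at MO. HSPH1, the inducible HSP110, went from 34.3 to 71.6 and 185 FPKM. HSP90AB1, the constitutive cytosolic HSP90, was 4.78-fold higher in MO than in 8C. Members that were lower included DNAJB9, an ER partner of HSPA5, 4.92-fold lower in MO than in 8C, DNAJC12 at 5.92-fold lower, and, from MO to IT, CCT4 at 2.32-fold and DNAJC15 at 3.02-fold lower.

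Between the blastocyst parts of IV-D, 12 members were higher in IT than in TE (all genes 14.9%) and 10 lower (all genes 8.1%). HSP70.2 was 16.4-fold (95% interval 15.4 to 17.6) higher in IT, DNAJB1 11.3-fold (95% interval 10.5 to 12.04), BAG3 6.05-fold (95% interval 5.31 to 6.91) and DNAJA4 45.6-fold (95% interval 24.6 to 95.5). Of the 15 ER genes 4 were lower in IT (DNAJC3, HSP90B1, DNAJB9 and PDIA2), 1 was higher (PDIA6) and the others were within the rule, and their summed levels were 948 FPKM in IT and 987 in TE. DNAJC3, an ER co-chaperone and inhibitor of the kinase PERK, was 3.25-fold lower in IT, HSP90B1 2.32-fold and DNAJB9 2.24-fold lower. The regulators XBP1 and ATF6 were 2.45-fold and 3.12-fold lower. PDIA6 stood at 34.4 FPKM in IT and 10.6 in TE. PDIA2, an isomerase best known from pancreas, was at 9.06 FPKM in IV-D TE and at or below 1.58 FPKM in the 22 other libraries. Prefoldin subunit PFDN4 was 2.499-fold lower in IT. In the clones HSP70.2 stood at 4.36 and 1.92 FPKM in NT-D IT and TE and at 6.67 and 3.20 in NT-LW; whether the difference between the parts differs between groups was not tested.

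Cloned embryos were then set against IV-D embryos at each stage, to see whether nuclear transfer embryos carry the chaperone transcripts of fertilized ones. In oocytes, before any nuclear transfer, 6 members were higher in the in vitro matured NT-D library (all genes 10.5%) and 0 lower (all genes 1.19%). HSP90B1 (6.46 and 15.4 FPKM in IV-D and NT-D), PDIA4 (14.6 and 36.6) and PDIA6 (4.43 and 15.50) were among the 6. Median-ratio scaling, with a shift of -0.15, gave 2 higher (all genes 5.34%) and 4 lower (all genes 5.39%). PDIA6 still passed under it, while HSP90B1 and PDIA4 fell within the rule.

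At the 1-cell stage 11 members were higher in NT-D (all genes 15.2%) and 4 lower (all genes 2.84%), and 14 were higher in NT-LW (all genes 17%) and 4 lower (all genes 3.37%). Rescaling to a common sum gave 17 (all genes 26.3%) and 2 (all genes 2.17%) for NT-D, with a shift of 0.22. For NT-LW it gave 25 (all genes 29.5%) and 2 (all genes 1.98%), with a shift of 0.28. Median-ratio scaling gave 3 (all genes 5.86%) and 6 (all genes 8.03%) for NT-D, with a shift of -0.30. For NT-LW it gave 7 (all genes 8.31%) and 8 (all genes 9.98%), with a shift of -0.23. At the 2-cell stage the counts were 6 higher (all genes 4.88%) and 2 lower (all genes 1.43%) in NT-D, and 17 higher (all genes 28.2%) and 3 lower (all genes 2.85%) in NT-LW. These too turned with scaling. With a common sum they were 6 (all genes 9.29%) and 1 (all genes 1.36%) in NT-D, with a shift of 0.12. In NT-LW they were then 23 (all genes 40.2%) and 1 (all genes 1.92%), with a shift of 0.28. With median ratios they were 3 (all genes 2.35%) and 5 (all genes 4.38%) in NT-D, with a shift of -0.20. In NT-LW they were then 5 (all genes 10.4%) and 16 (all genes 15.9%), with a shift of -0.52. The direction of the counts in these early stages thus depends on scaling. HSP90B1 was higher in the clones at each early stage, at 11.4, 7.49 and 18.7 FPKM in IV-D 1C, 2C and 4C, 28.9, 18.7 and 61.6 in NT-D and 31.7, 25.7 and 61.3 in NT-LW, within the rule at 1C and 2C under median-ratio scaling. PDIA3, the isomerase that works with CALR on glycoproteins, stood at 32.7, 25.1 and 45.2 FPKM in IV-D, 96.6, 55.2 and 99.0 in NT-D and 159, 88.8 and 122 in NT-LW. Under median-ratio scaling PDIA3 fell within the rule at 2C in both clone groups. PFDN4 was lower in the clones at 1C and 4C, with 612 FPKM in IV-D 1-cell embryos, 136 in NT-D and 114 in NT-LW. DNAJC19 was lower in cloned 1-cell embryos, at 33.3 and 36.0 FPKM against 73.3, and DNAJA3, a mitochondrial J-domain protein, higher, at 17.2 and 18.5 against 4.87. DNAJC24, needed for the diphthamide modification of an elongation factor, was at 63.3 FPKM in IV-D 2-cell embryos and at 27.4 and 26.7 in the clones.

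At the 4-cell stage, 6 members were higher in NT-D (all genes 8.5%) and 9 lower (all genes 11.5%). Median-ratio scaling gave 8 (all genes 10.4%) and 6 (all genes 10.2%), with a shift of 0.068. In NT-LW 8 were higher (all genes 9.45%) and 4 lower (all genes 8.26%). With a common sum these were 8 (all genes 10.3%) and 10 (all genes 12.02%), with a shift of -0.077. HSPA13, an ER-associated HSP70, had 1.59 FPKM in IV-D and 11.5 and 11.07 in NT-D and NT-LW. DNAJB1, which was higher here than at the 2-cell stage in IV-D, stood at 168 FPKM there and at 43.6 and 72.7 in the clones. HSPA8 had 606, 288 and 476 FPKM in IV-D, NT-D and NT-LW, past the rule in NT-D alone.

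Cloned 8-cell embryos had lower levels of several members, in numbers near the share of all genes that were lower. In NT-D 5 were higher (6.67%, all genes 9.38%) and 13 lower (17.3%, all genes 15.1%). Median-ratio scaling gave 6 (all genes 11.8%) and 9 (all genes 10.97%), with a shift of 0.11. In NT-LW 6 were higher (8%, all genes 14.5%) and 11 lower (14.7%, all genes 15.3%). After rescaling to a common sum these were 4 (all genes 12.7%) and 16 (all genes 22.4%), with a shift of -0.21. DNAJC12, a J-domain co-chaperone of the aromatic amino acid hydroxylases, had 33.3 FPKM in IV-D, 4.38 in NT-D and 4.22 in NT-LW, 7.61-fold (95% interval 6.88 to 8.44) and 7.90-fold (95% interval 7.07 to 8.85) lower. CCT4 stood at 152, 53.1 and 58.9 FPKM in the same order and CCT7 at 24.0, 5.68 and 6.66. HSPA9 (mortalin) had 314, 111 and 97.8 FPKM. CALR had 55.0, 17.1 and 18.2 FPKM and DNAJB9 237, 92.0 and 79.0. All of these were lower in both clone libraries. HSF2 went the other way, at 13.0 FPKM in IV-D against 34.4 and 41.5, 2.66-fold (95% interval 2.42 to 2.91) and 3.20-fold (95% interval 2.92 to 3.51) higher, and so did DNAJC18 (9.03, 20.01 and 32.5 FPKM), PFDN4 (54.6, 114 and 119) and HSPB1 (0.167, 5.98 and 3.63).

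In morulae NT-D had 9 members higher (12%, all genes 17.1%) and 9 lower (12%, all genes 3.55%). Under median-ratio scaling it had 3 (all genes 11.3%) and 10 (all genes 5.71%), with a shift of -0.21. NT-LW had 9 higher (all genes 10%) and 4 lower (all genes 3.5%). Under median-ratio scaling it had 5 (all genes 5.43%) and 7 (all genes 4.92%), with a shift of -0.18. HSP70.2 was 21.4-fold (95% interval 18.4 to 25.0) lower in NT-D and 27.5-fold (95% interval 23.04 to 33.0) lower in NT-LW, and BAG3 5.54-fold and 9.76-fold lower. HSPB1, at 0.488 FPKM (9 fragments) in IV-D morulae, was at 15.1 in NT-D and 7.26 in NT-LW. HSPA4L was higher in both as well, at 34.6 and 33.1 FPKM against 15.8, and so was DNAJC1, an ER membrane J-domain protein, at 20.9 and 22.3 against 9.63. Under median-ratio scaling DNAJC1 fell within the rule in both. HSPB1 and HSPA4L are among the members with higher levels in all libraries up to 4C. The oocyte markers also summed higher in the cloned morulae, at 190 FPKM in NT-D and 30.9 in NT-LW against 8.33 in IV-D. They did so in cloned 8-cell embryos as well. The part that remaining oocyte RNA has in the higher levels of these members was not tested.

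The IT comparisons had the largest numbers of members past the rule among comparisons of clones with IV-D, and ER genes and heat-inducible genes went in opposite directions in them. Both lists were made after these values were seen, so the opposite directions describe the genes chosen and are no test. In IT 11 members were higher in NT-D (14.7%, all genes 7.81%) and 18 lower (24.0%, all genes 12.7%), and 10 were higher in NT-LW (13.3%, all genes 7.17%) and 14 lower (18.7%, all genes 11.3%). In TE 8 were higher in NT-D (10.7%, all genes 2.43%) and 6 lower (8%, all genes 3.28%). In NT-LW TE 7 were higher (9.33%, all genes 4.92%) and 12 lower (16.0%, all genes 8.03%). Under median-ratio scaling the NT-LW counts were 11 (all genes 6.88%) and 11 (all genes 5.79%). All 4 comparisons exceeded the background in both directions. Of the 15 ER genes 7 were higher in NT-D IT and 6 in NT-LW IT with 0 lower, and 8 and 7 were higher in TE with 1 lower in each. Of the 7 heat-inducible genes 6 were lower in each cloned IT library and 3 in each cloned TE library, with 0 higher.

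HSPA5, the ER HSP70 that also holds the stress sensors there inactive, had 266 FPKM in IV-D IT and 172 in IV-D TE. The cloned libraries held 661 and 675 FPKM in NT-D and 600.0 and 1242 in NT-LW, so all 4 lay above both IV-D parts. The ratio in IT was 2.49-fold (95% interval 2.44 to 2.54) for NT-D and 2.26-fold (95% interval 2.21 to 2.31) for NT-LW, and in TE 3.93-fold (95% interval 3.82 to 4.04) and 7.22-fold (95% interval 7.03 to 7.42). HSP90B1, the ER HSP90, had 104 and 241 FPKM in IV-D IT and TE, 643 and 777 in NT-D and 503 and 1221 in NT-LW. Its ratios were 6.19-fold (95% interval 5.97 to 6.42) and 4.85-fold (95% interval 4.67 to 5.03) in IT and 3.23-fold (95% interval 3.13 to 3.32) and 5.07-fold (95% interval 4.93 to 5.21) in TE. The same genes were not higher in cloned morulae, with HSPA5 at 139.6 FPKM in IV-D, 58.8 in NT-D and 119 in NT-LW and HSP90B1 at 149.7, 88.5 and 85.0.

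Partners of HSPA5 and the isomerases were higher in part. DNAJB11 and DNAJB9, its J-domain partners in the ER lumen, were past the rule in all 4 comparisons, DNAJB11 at 14.0 and 14.3 FPKM in IV-D IT and TE, 45.5 and 43.3 in NT-D and 39.1 and 74.5 in NT-LW, and DNAJB9 at 24.9 and 55.8, 137 and 118, and 113 and 129.9. PDIA4 was the isomerase that passed in all 4, at 20.7 and 14.4 FPKM in IV-D, 44.6 and 41.7 in NT-D and 47.7 and 106 in NT-LW. DNAJC3 passed in both IT comparisons (15.50 FPKM in IV-D, 109 in NT-D and 62.0 in NT-LW), and PDIA3 and PDIA6 in both TE comparisons. PDIA6 had 10.6 FPKM in IV-D TE and 37.4 and 74.4 in the clones, while its IT levels were close, at 34.4, 35.5 and 33.2. CALR passed in NT-D alone, with 216 and 241 FPKM against 101 and 64.2 in IV-D and 88.6 and 119.9 in NT-LW. Not every ER gene took part: PDIA5, DNAJC1, DNAJC10, DNAJC25 and HSPA13 passed in none of the 4 comparisons, and PDIA2 was lower in both cloned TE libraries, at 0.244 and 0.528 FPKM against 9.06.

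The summed level of the 15 ER genes was 948 and 987 FPKM in IV-D IT and TE, 2540 and 2678 in NT-D and 2018 and 3974 in NT-LW. The order was reversed at the 8-cell stage, with 937 FPKM in IV-D, 556 in NT-D and 547 in NT-LW, and in morulae, with 860 FPKM, 588 and 700. Up to 4C the sums were 178 in OC, 288 in 1C, 129 in 2C and 234 in 4C of IV-D, against 291, 382, 189 and 389 in NT-D and 456, 303 and 447 from 1C to 4C in NT-LW; median-ratio scaling kept these orders except at 1C, where IV-D then stood at 346 and NT-D at 327. Between MO and IT the sum thus went from 860 to 948 FPKM in IV-D, from 588 to 2540 in NT-D and from 700 to 2018 in NT-LW. HSPA5 alone went from 139.6 to 266 FPKM, from 58.8 to 661 and from 119 to 600.0.

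**Figure D3:**
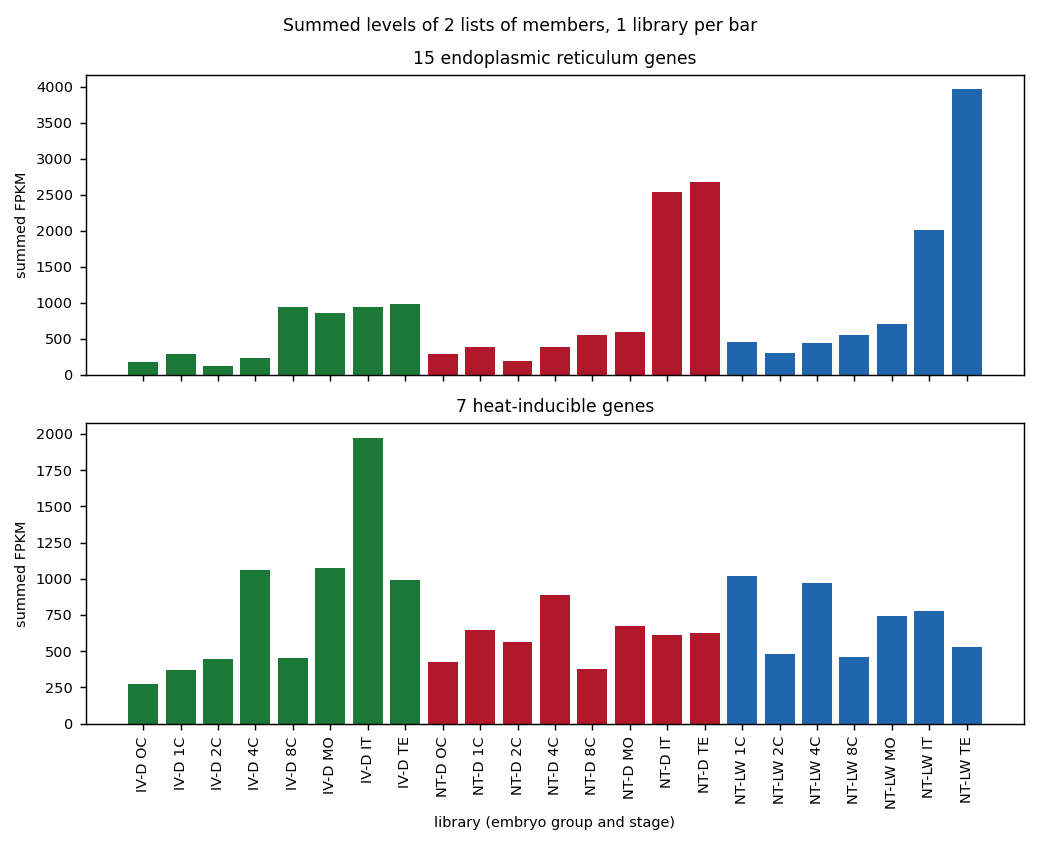
Summed FPKM of the 15 ER genes (upper panel) and the 7 heat-inducible genes (lower panel) in each library, green for IV-D, red for NT-D and blue for NT-LW, 1 library per bar. The ER bars of the 4 cloned blastocyst parts (2018 to 3974 FPKM) stand above all others, and the heat-inducible bar of IV-D IT (1975 FPKM) is the tallest of its panel.

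Transcripts of both ER stress regulators were also higher in cloned IT. XBP1 had 22.7 FPKM in IV-D IT, 72.3 in NT-D and 71.4 in NT-LW, 3.18-fold (95% interval 2.96 to 3.42) and 3.14-fold (95% interval 2.92 to 3.37) higher, and 55.7, 82.3 and 90.0 FPKM in TE, within the rule. ATF6 had 4.27, 15.8 and 10.9 FPKM in IT, past the rule in both clone groups, and 13.3, 17.3 and 12.1 in TE. HSF2 stood at 15.4, 17.4 and 4.86 FPKM in TE, lower in NT-LW alone. Among the members with the ER stress element printed above, HSPA5 and HSP90B1 were past the rule in all 4 comparisons, XBP1 in both of IT and CALR in both of NT-D. The 5 genes of the table that hold the element and are no members had median differences of 0.95 and 0.88 in IT and 0.72 and 1.41 in TE, for NT-D and NT-LW in turn, and CANX, the membrane-bound relative of CALR, had differences of 1.23, 1.15, 0.65 and 1.52. LMBR1 was below 0 in all 4, at -0.30, -0.30, -0.10 and -0.82.

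Heat-inducible genes stood in the opposite order. HSP70.2 had 262 FPKM in IV-D IT (19998 fragments), 4.36 in NT-D and 6.67 in NT-LW, 60.2-fold (95% interval 54.2 to 66.9) and 39.3-fold (95% interval 36.1 to 42.8) lower in the clones. In TE the levels were 16.0, 1.92 and 3.20 FPKM. Over all 15 cloned libraries, the NT-D oocytes included, HSP70.2 lay between 0.396 and 6.67 FPKM. DNAJB1 had 288 FPKM in IV-D IT and 15.1 and 21.2 in the clones, 19.0-fold (95% interval 17.7 to 20.5) and 13.6-fold (95% interval 12.8 to 14.5) lower. Its TE levels did not pass the rule, at 25.6, 16.2 and 23.6. BAG3 was 25.3-fold and 10.7-fold lower in IT and 4.001-fold and 2.97-fold lower in TE. HSPH1 was 6.08-fold and 4.91-fold lower in IT, and DNAJA4 stood at 5.81 FPKM against 0.225 and 0.390. HSPB1 had 9.02 FPKM in IV-D TE and 0.366 and 1.75 in the cloned ones. HSP90AA1, the inducible cytosolic HSP90, had 1184, 559.8 and 708 FPKM in IT, past the rule in NT-D.

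**Figure D4:**
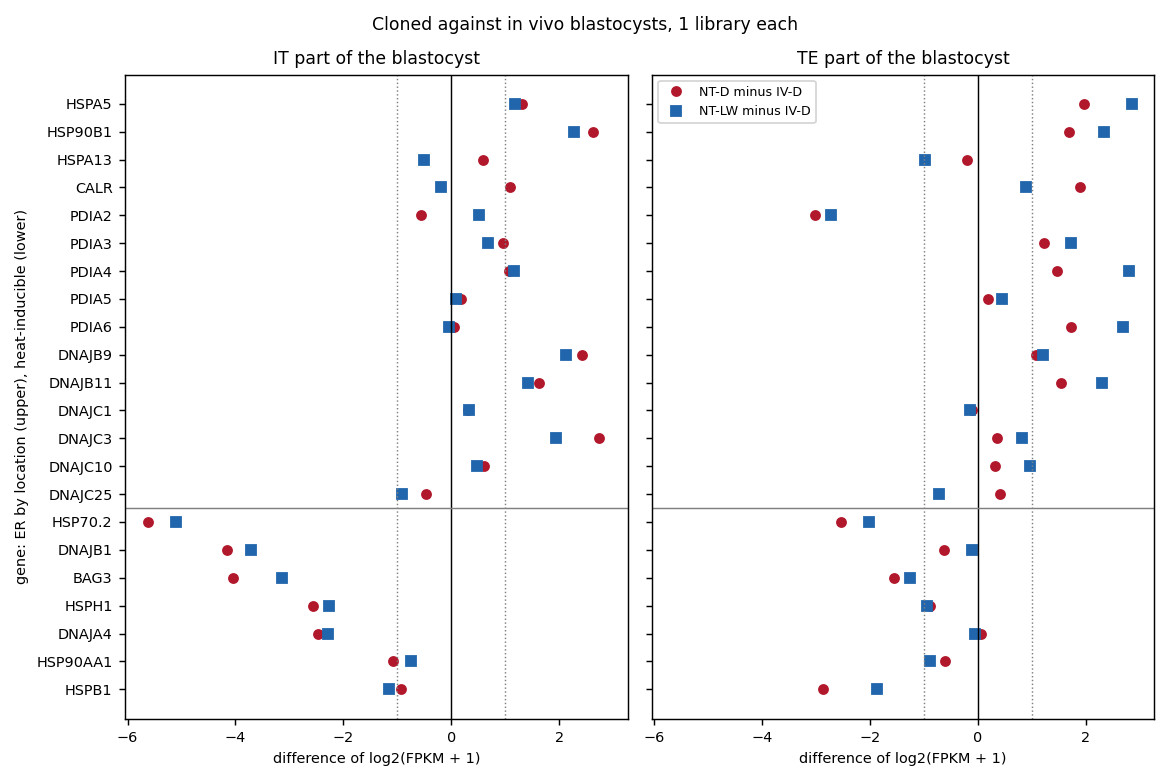
Difference of log2(FPKM + 1) between cloned and IV-D blastocyst parts (IT left, TE right) for the 15 ER genes (above the line) and 7 heat-inducible genes (below it), with NT-D as red circles and NT-LW as blue squares, 1 library each, and dotted lines at -1 and 1. HSPA5, HSP90B1, DNAJB9, DNAJB11 and PDIA4 lie right of 1 in both panels for both clone groups, and HSP70.2, DNAJB1, BAG3, HSPH1 and DNAJA4 lie left of -1 in IT.

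The 7 heat-inducible genes summed to 1975 FPKM in IV-D IT and 993 in TE, to 614 and 627 in NT-D and to 780 and 532 in NT-LW. HSP90AA1 makes up much of these sums, and the median of the 7 was 185 FPKM in IV-D IT, 16.0 in IV-D TE, 4.36 and 1.92 in NT-D and 6.67 and 3.20 in NT-LW. The high value rests on the single IV-D IT library, with IV-D morulae next at a median of 50.7 FPKM, and no further fertilized IT library was analysed here.

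Of the constitutive cytosolic chaperones, HSPA8, HSP90AB1, CCT5 and CCT7 were lower in both cloned IT libraries. HSPA8 had 4373 FPKM in IV-D, 1752 in NT-D and 1407 in NT-LW, 2.496-fold (95% interval 2.48 to 2.51) and 3.11-fold (95% interval 3.08 to 3.13) lower. HSP90AB1 was 2.43-fold and 3.13-fold lower, CCT5 2.49-fold and 2.18-fold and CCT7 2.78-fold and 2.44-fold. The other 5 CCT subunits were within the rule in both IT comparisons, as were the 3 mitochondrial chaperones, with HSPD1 at 545, 364 and 362 FPKM. PFDN4 was higher in both clones, at 116 and 116 FPKM against 49.8. All these IT comparisons rest on the same IV-D library. The inner cell mass genes summed to 32.3 FPKM in IV-D IT, 17.2 in NT-D IT and 12.9 in NT-LW IT, of which KLF17 had 14.2, 2.56 and 2.45 FPKM. The trophectoderm markers of the IV-D parts summed within the range of the cloned ones, as did KRT8 and KRT18 singly. GATA3 and GATA2 were below all cloned parts in both IV-D parts, and TEAD4 was above them. TFAP2C lay within the range in IT and below it in TE. GATA3 had 5.42 and 14.03 FPKM in IV-D IT and TE, 17.07 and 18.45 in NT-D and 14.35 and 15.12 in NT-LW. TEAD4 had 14.28 and 8.52, 4.36 and 7.47, and 6.64 and 5.896 FPKM in the same order. The part that the share of inner cell mass in each IT library has in the differences of the members was not tested.

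Other co-chaperones and subunits are described by their role. DNAJC7, a J-domain protein with TPR repeats that passes clients between HSP70 and HSP90, stood at 192, 90.4, 148, 363, 102, 87.9, 55.8 and 14.3 FPKM from OC to TE in IV-D. It was lower at 8C than at 4C in all 3 groups and lower in both cloned IT libraries (24.2 and 25.6 FPKM). DNAJC6 (auxilin), which helps HSP70 strip clathrin from vesicles, was also lower at 8C than at 4C in all groups, from 4.98 to 0.572 FPKM in IV-D. DNAJC13, a J-domain protein of endosomes, and DNAJC17, which binds RNA, passed the rule as lower at that step in both clone groups and did not in IV-D, a difference that was not tested. Among the nucleotide exchange factors, BAG5 went from 0.0450 FPKM (1 fragment) at 4C to 6.88 at 8C in IV-D and was higher at 8C in all groups. In IT it was lower in the clones, at 1.55 and 2.02 FPKM against 5.34. HSPA4, an HSP110 protein, stood at 44.7, 53.1, 62.9, 38.2, 96.7, 120.2, 64.4 and 135 FPKM from OC to TE, and the CCT subunit CCT2 at 94.9, 82.9, 136, 65.5, 247, 197, 162 and 243, both higher at 8C than at 4C in all groups. Prefoldin subunits PFDN1 and PFDN5 were higher at that step too, PFDN5 from 11.9 to 35.5 FPKM in IV-D, from 15.2 to 42.2 in NT-D and from 30.4 to 63.0 in NT-LW. HSPA12A, a distant HSP70 relative, was higher in NT-D than in IV-D oocytes, 2-cell embryos and morulae, and in NT-LW it was lower at 1C and higher at 2C than in IV-D. HSPA14, which works with a J-domain protein at the ribosome, stood at 52.2 FPKM in IT and 24.3 in TE of IV-D. DNAJA2 and DNAJC9 passed the rule in 1 comparison, NT-LW against IV-D at 1C, DNAJB12 and DNAJC14 were among the members higher at 4C than at 2C in IV-D, and DNAJC8, a splicing-associated protein, passed in none.

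Genes of protein folding that the rule leaves out were looked at from a list of 48, of which 37 are in the table. In IT 10 were higher in NT-D (all genes 7.81%) and 9 lower (all genes 12.7%), and 9 higher in NT-LW (all genes 7.17%) and 9 lower (all genes 11.3%). Those higher in both were HYOU1, an ER relative of HSP110, CANX, HERPUD1 and SEL1L of ER-associated degradation, the thiol protein ERP44, the secreted MANF and the amino acid enzyme ASNS. Those lower in both were TRAP1, the mitochondrial HSP90, the HSP90 co-chaperones STIP1, AHSA1, FKBP4 and CDC37, NUDC, the mitochondrial CLPB and CLPP, and PPP1R15A, the phosphatase subunit that ends the stress block of translation. In TE 5 were higher in NT-D (all genes 2.43%) and 0 lower (all genes 3.28%), and 10 higher in NT-LW (all genes 4.92%) and 3 lower (all genes 8.03%). HYOU1, HERPUD1, ERP44, MANF and CRELD2 were higher in both. At the 8-cell stage 0 and 2 of the 37 were higher in NT-D and NT-LW (all genes 9.38% and 14.5%) and 8 and 8 lower (all genes 15.1% and 15.3%). P4HB, an isomerase, and ERP44 were among those lower in both.

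**Figure D5:**
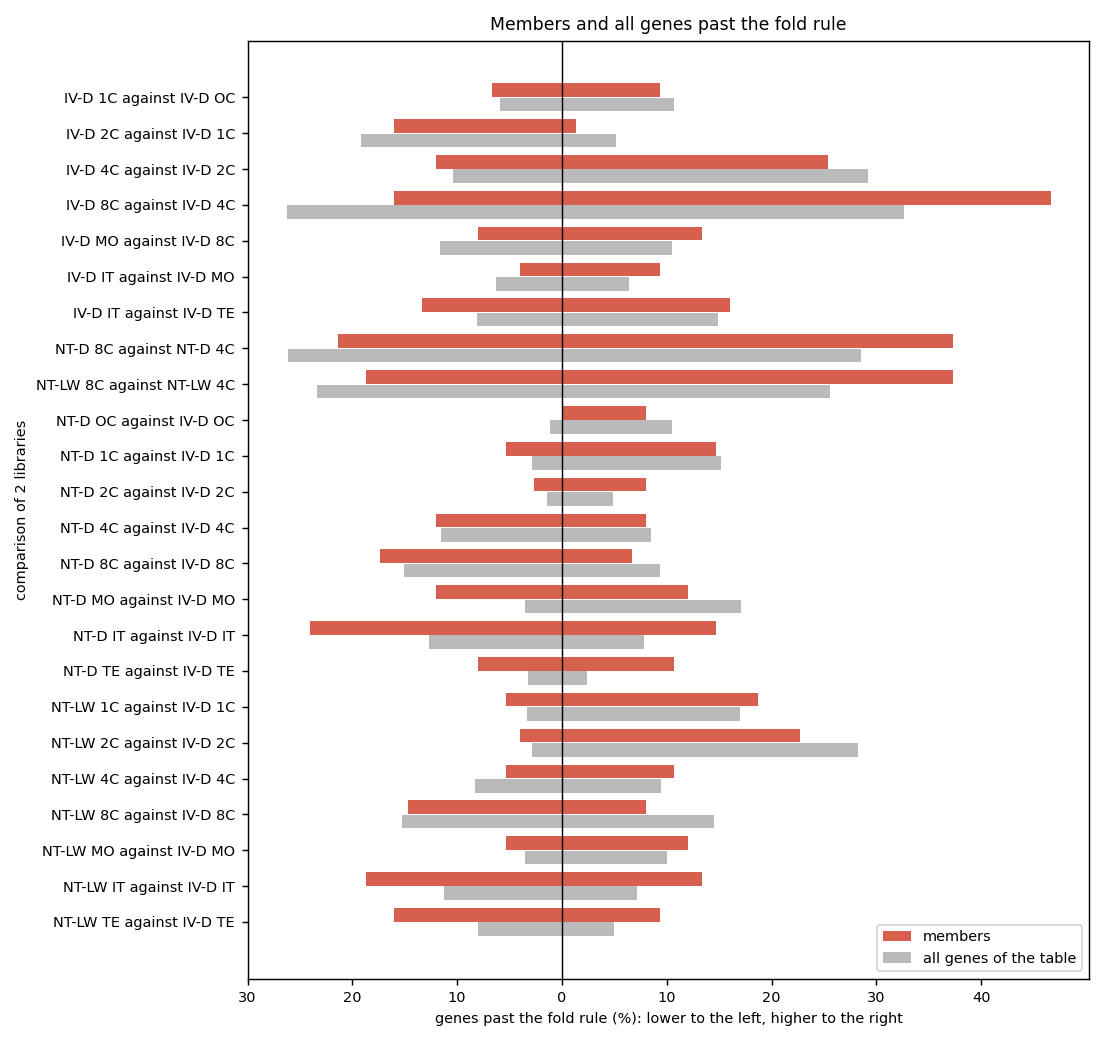
Share of the 75 members (red) and of all 8603 genes of the table (grey) past the fold rule in each comparison of 2 libraries, lower to the left and higher to the right of 0, in percent. Members exceed all genes upward in the steps from 4C to 8C and in both directions in the IT and TE comparisons of clones with IV-D, and downward in NT-D morulae against IV-D morulae (12% and 3.55%).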

How the data were processed

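RNA from pools of oocytes or embryos was amplified as polyA cDNA with the SMART-Seq v4 kit and sequenced as paired ends, 23 libraries with 1 library for each condition. The authors deposited 1 table of FPKM values for 8603 Ensembl genes. The submitters' processing notes name HISAT2 2.0.4, HTSeq 0.9.1 and DESeq with the build Sscrofa11.1. The label of the table speaks of differential genes, and how its genes were chosen is not given in the sources used here. Shares of all genes are therefore shares of this table and not of the whole transcriptome. Amplification and paralogous reads can alter single values. Groups were taken from the sample labels and columns from their names.

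Whole fragments were recovered from the deposited FPKM values for all 8603 genes (tolerance 0.05 fragments), which gave library depths and counting intervals at the 95% level. Differences were taken as log2(FPKM + 1), and a gene passed when the difference exceeded 1 with FPKM of at least 1 in one of the 2 libraries. No test between conditions was possible with 1 library each. The counts were repeated with 0.1 as the pseudocount, with 5 FPKM as the minimum, with libraries scaled to a common sum (1000000) or by median ratios, and with an exact binomial test on the fragments of the 2 libraries added to the fold rule, at an adjusted p of 0.005, a test that compares those libraries and not the conditions. The scripts were tested on simulated data.

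The members and gene lists were chosen with earlier results of these data known. Named genes were 39 members: the listed regulators and CALR, the 5 most abundant by median, the 5 with the widest range, and per step or stage the 3 with the largest change in each direction that passed with at least 10 FPKM, in both clone groups where clones were compared. All other names were chosen after their values were seen. Promoters and gene positions are from RefSeq on Sscrofa11.1. Tables were handled with pandas 2.3.3 and numpy 2.4.6 in Python 3.11.15, intervals with scipy 1.17.1, the genome with pysam 0.24.0 and plots with matplotlib 3.10.9.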

Additional observations from a re-analysis of the deposited data

Results flagged for a closer look

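At the step from morula to blastocyst 3 members moved in opposite directions in fertilized and cloned embryos, in 1 library per condition; this difference was not tested. DNAJB1 differed by 1.73 on the log2(FPKM + 1) scale between MO and IT in IV-D (85.8 and 288 FPKM), by -1.41 in NT-D (41.9 and 15.1 FPKM) and by -1.25 in NT-LW (51.7 and 21.2 FPKM). DNAJB4, a J-domain protein close to DNAJB1, differed by 2.25 in IV-D (1.29 and 9.92 FPKM), by -1.92 in NT-D (6.48 and 0.977 FPKM) and by -1.88 in NT-LW (7.21 and 1.23 FPKM). HSPB1 differed by 2.17 in IV-D between MO and IT (0.488 and 5.71 FPKM), by -2.19 in NT-D (15.1 and 2.53 FPKM) and by -1.45 in NT-LW (7.26 and 2.02 FPKM). Between MO and TE HSPB1 differed by 2.75 in IV-D (0.488 and 9.02 FPKM), by -3.56 in NT-D (15.1 and 0.366 FPKM) and by -1.59 in NT-LW (7.26 and 1.75 FPKM). The IV-D morula value of HSPB1 enters both of its steps and rests on 9 fragments.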

How the results depend on the processing

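Of 124 recomputed counts of members past the rule or separated by stage, 122 stayed within 1.5 times the reported count. All 24 with the exact binomial test on fragments added are among these. Each count takes both directions together, so a turn from higher to lower does not show in it. At 1C in NT-D against IV-D median-ratio scaling gave 9 members past the rule in place of 15, and at 4C in NT-LW against IV-D a pseudocount of 0.1 gave 20 in place of 12; the cause was not tested. The split of higher and lower members moved by over 10 percentage points under scaling in the comparisons where both splits are printed above, and also for IV-D 1C against OC with a pseudocount of 0.1 (11 and 5), for NT-LW 4-cell embryos with that pseudocount (11 and 9) and, with a minimum FPKM of 5, for NT-D morulae (5 and 8). Of 320 single differences past the rule that were recomputed, 73 moved by more than their counting interval with the smaller pseudocount. With a common sum 172 did so, and with median-ratio scaling 203. A change of sign was seen in 0, and these settings could not have brought one about in differences of this size. No paired analysis was possible because each condition has 1 library, so that the groups share fewer than 2 replicate numbers. For the same reason no replicate could be left out, and fold intervals cover counting error only. Members at or under 3 fragments in a library, such as HSPB1 in IV-D 8-cell embryos, have folds that depend on that count.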
